A study of Mus musculus with 2 samples.

Results

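The genes described here encode the proteins of the cytosolic ribosome, read in brain RNA of mice with and without the cytokine interleukin-18. Members were every array gene whose mouse symbol begins with Rpl or Rps and a digit, with Rpsa, Rplp0, Rplp1 and Rplp2, and without the Rps6k kinases, pseudogenes ending in -ps and Gm names. This gave 88 genes of the 20660 named genes on the array, 53 of the large subunit and 35 of the small subunit by their symbols. The rule also takes in Rps19bp1, which binds ribosomal protein S19 and is not itself a ribosomal protein, and Rps4l, which RefSeq lists as a transcribed pseudogene. Without these and 8 further paralogs there were 78 core members. A further 7 symbols of RefSeq meet the rule and were not matched to a probe, among them Rpl37rt, Rps27rt and Rps12l1.

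Both groups were male C57BL/6 N mice of 12 weeks, either wild type (Il18+/+) or without Il18 (Il18-/-), and no treatment is named for either. Total RNA of 7 mice was pooled per genotype and each pool was hybridised to 1 Agilent array, so there was 1 sample per genotype and no replicate check or test was possible. Sample labels give hippocampus as the tissue, while the extraction protocol names prefrontal cortex, and all 6 neuronal markers listed were measured. How the Il18 allele was made and which part of it was removed are not given in the sources used here.

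Ribosomal proteins are made in near equal numbers and assembled on ribosomal RNA in the nucleolus into a large subunit, which forms peptide bonds, and a small subunit, which decodes the messenger RNA. Most of their messenger RNAs begin with a cytosine and a run of pyrimidines, the 5' terminal oligopyrimidine tract, through which the kinase mTOR and the RNA-binding protein Larp1 control their translation together. In neurons they are among the most abundant messenger RNAs of the cell body and are also carried into axons and dendrites. The mouse genome holds many processed copies of these genes, so an array probe may also read transcripts of near-identical copies.

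A few windows around the start of members are shown because the letters in capitals were found in a larger share of members than of all genes. Each window holds 30 bases of the RefSeq sequence (GRCm38.p6), 15 before the annotated start and 15 from the start on, and is written 5' to 3' on the gene's own strand. Capitals mark a run of C and T that begins with C (Rpl38, Rpl15, Rpl4 and Rps6), CCGGAAG (Rpl26), the reverse complement of AAGATGGC (Rps15a), or a palindrome of 10 letters (Rps28 and Rps19).
Rpl38, chr11:114668565-114668594, plus strand: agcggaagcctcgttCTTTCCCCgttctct
Rpl15, chr14:18270972-18271001, minus strand: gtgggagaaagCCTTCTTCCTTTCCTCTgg
Rpl4, chr9:64173372-64173401, plus strand: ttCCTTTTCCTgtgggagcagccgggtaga
Rps6, chr4:86857353-86857382, minus strand: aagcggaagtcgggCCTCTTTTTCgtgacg
Rpl26, chr11:68901551-68901580, plus strand: ctcgcggcaacttacagaaCCGGAAGtcgc
Rps15a, chr7:118116133-118116162, minus strand: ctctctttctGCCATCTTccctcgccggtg
Rps28, chr17:33824548-33824577, minus strand: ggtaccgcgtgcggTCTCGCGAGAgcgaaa
Rps19, chr7:24884577-24884606, plus strand: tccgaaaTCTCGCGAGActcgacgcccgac

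The RefSeq table held a promoter for 67 of the 88 members. A run of at least 5 bases of C or T that begins with C on the annotated start base itself was found in 14 of them (20.9%), against 3.01% of all 27025 genes in the table. A run of at least 7 such bases lay within 20 bases of the start in 37 members (55.2%), against 21.4% of all genes. Both counts read the gene's own strand only, as in the windows above. Of the promoters, taken from 250 bases before the start to 50 after it and searched on both strands, CCGGAAG was in 26 of the members (38.8% against 9.93% of all genes) and AAGATGGC in 6 (8.96% against 3.19%). The palindrome in capitals in the Rps28 and Rps19 windows, which reads the same on both strands, was in 6 (8.96% against 0.525%). A match is a description of the letters and not of a bound factor. A match to CCGGAAG can overlap one to AAGATGGC by the letters AAG, and a gene with several annotated starts counted once.

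The ribosomal protein genes read slightly higher in Il18-/- with each array set to its own 75th percentile, nearly all by a similar small amount, and all of them read lower with spike-in scaling. A level is the log2 processed intensity relative to the 75th percentile of its array, and a difference is the Il18-/- level minus the Il18+/+ level. Of the 88 members 85 were measured, meaning that 1 or more of their probes passed the scanner's background flag on each array. Their median difference was 0.12, with 79 above 0 and 6 below 0, where 52.6% of all 15737 measured genes were above 0 and the median over all genes was 0.01. The lower and upper quartiles of the members were 0.07 and 0.16, and all of them lay between -0.42 and 0.28. No member reached 1.5-fold in either direction, where 1.68% of all measured genes were 1.5-fold or more higher and 2.57% were 1.5-fold or more lower. No member reached 2-fold either, against 0.642% higher and 0.451% lower among all genes. Bright genes in general rarely reached 1.5-fold. Of the members 65 had a mean level of 4 or more. Of the 1019 other genes in that range, 3 were 1.5-fold or more higher and 2 were 1.5-fold or more lower. In pooled tissue RNA, fewer cells of a type and less RNA per cell cannot be told apart.

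**Figure D1:**
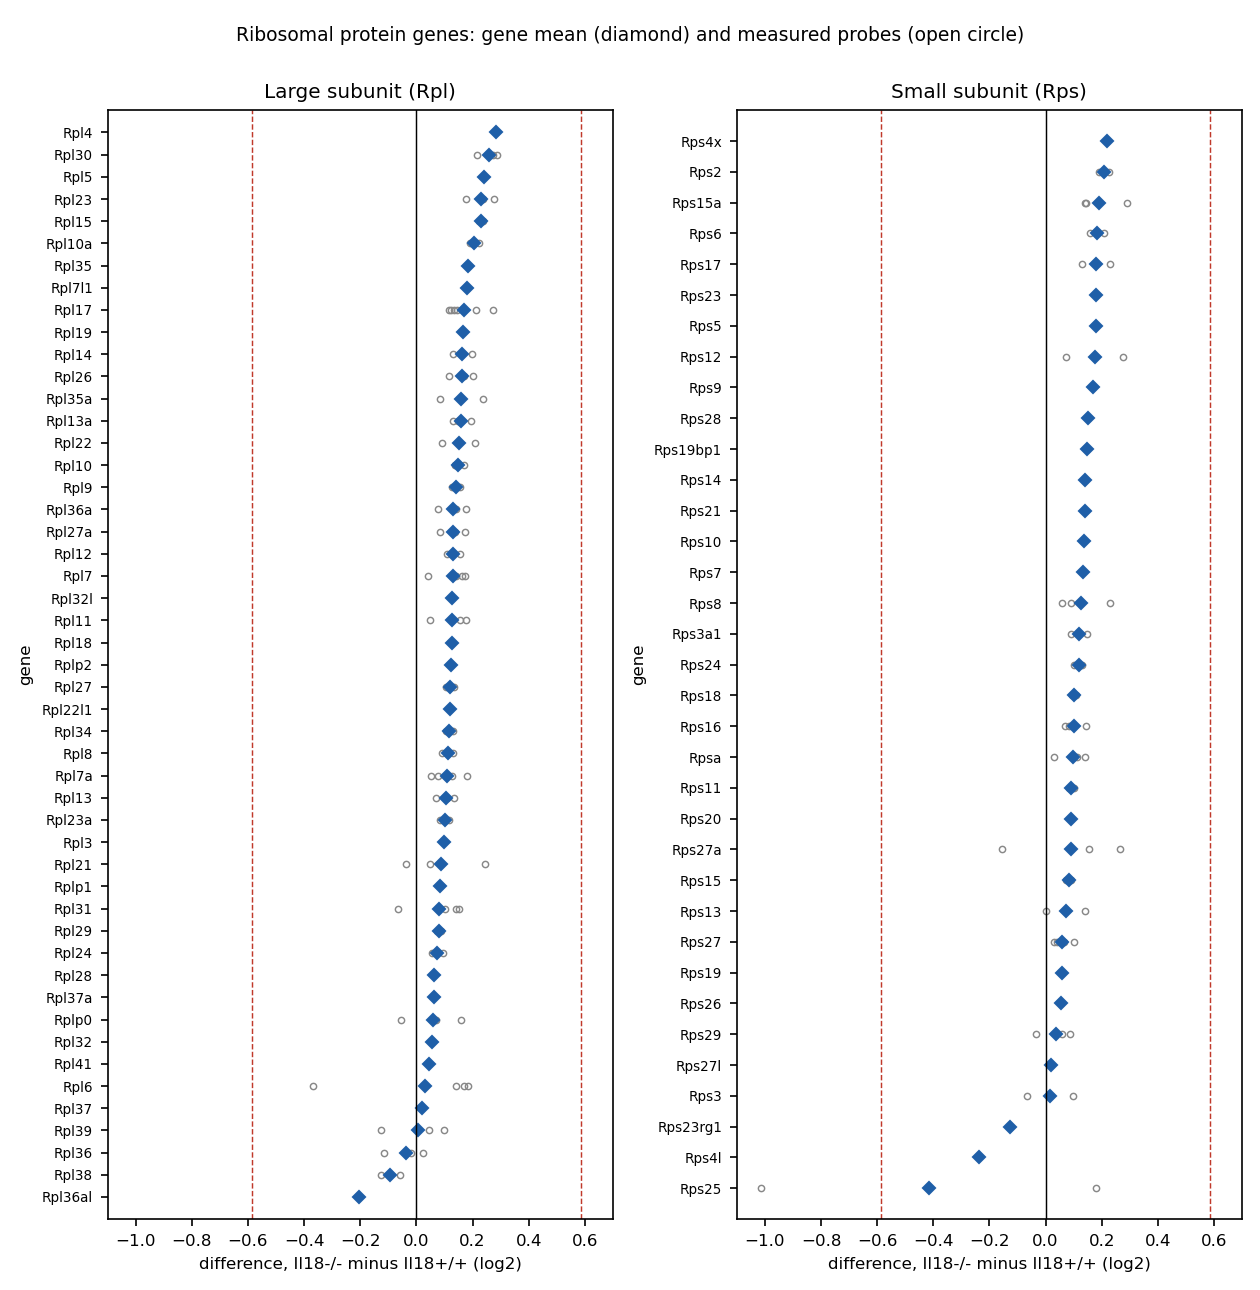
Difference in log2 level between Il18-/- and Il18+/+ for 84 of the 85 measured members (diamonds), with every measured probe of the gene (open circles), large subunit on the left and small subunit on the right. Dashed red lines mark 1.5-fold, which no diamond reaches. Most diamonds lie above 0 with this scaling, and none does with spike-in scaling.

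The shift has to be read beside the brightness of these probes, since bright probes in general read higher on the Il18-/- array. Among genes with a mean level of 4 or more, 65 members had a median of 0.13 with 62 above 0, and 1019 other genes had a median of 0.08 with 792 above 0. Spread was also smaller for the members in this range, with a standard deviation across genes of 0.07 against 0.13 for the other genes. After cyclic loess, which removes a shift that depends on brightness, the bright members had a median of 0.03 and 46 of 65 were above 0, and the other bright genes had a median of -0.01 with 466 of 1019 above 0. Over all 85 members the median after loess was 0.03, and 59 were above 0.

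**Figure D2:**
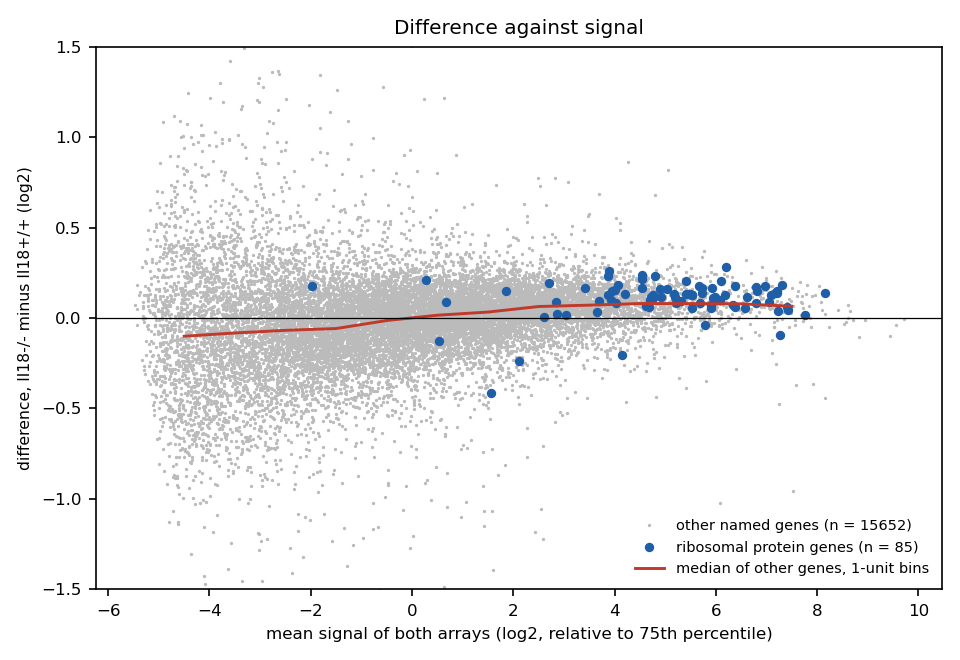
Difference (log2) against the mean level of both arrays for 85 members (blue) and 15652 other named genes (grey), with the median of the other genes in bins 1 unit wide (red line). The grey median climbs above 0 at high levels, the members lie mostly on or above it there (with spike-in scaling every member is below 0), and 71 other genes fall outside the vertical range drawn.

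Both subunits had similar medians, which were above 0 here and below 0 with spike-in scaling. The 50 measured large subunit genes had a median difference of 0.13, with 47 above 0 and a range from -0.20 to 0.28. The 35 small subunit genes had a median of 0.12, with 32 above 0 and a range from -0.42 to 0.22. Core members alone had a median of 0.13 with 75 of 78 above 0.

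Of the large subunit, Rpl4 had the highest difference with the 75th percentile, while Rpl7l1 was above it after quantile normalization (0.22 against 0.20) and after loess (0.24 against 0.18), and Rpl5 with normexp (0.35 against 0.31). Rpl4, whose protein lines part of the exit tunnel for the growing peptide, read 6.06 in Il18+/+ and 6.34 in Il18-/-, a difference of 0.28 or 1.22-fold. It was read by 1 probe and lies on the same chromosome as Il18, with 135 measured genes between them. Rpl30, which encodes a small protein of the large subunit, read 3.76 and 4.01, a difference of 0.26 over 3 probes. Rpl5, which carries 5S ribosomal RNA into the large subunit and binds the p53 regulator Mdm2, read 4.43 and 4.67, a difference of 0.24. Its partner in that particle, Rpl11, read 6.12 and 6.25 with a difference of 0.13.

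Rpl23, another protein that binds Mdm2, was read by a probe with repeated spots. It read 4.69 in Il18+/+ and 4.92 in Il18-/-, a difference of 0.23 or 1.17-fold. One of its 3 probes was spotted 10 times on each array and gave a difference of 0.28 with a standard deviation of 0.04 over these spots, while the other probes gave 0.18 and 0.24. Over all 329 probes with repeated spots the median standard deviation was 0.07, which covers error within these arrays and leaves out differences between mice and pools. Rpl15, which binds ribosomal RNA in the large subunit, read 3.75 and 3.98, a difference of 0.23, with 0.22 and 0.24 from its 2 probes.

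The stalk, the arm of the large subunit that recruits translation factors, was slightly higher with the 75th percentile and not after loess or with spike-in scaling. Its base protein gene Rplp0 read 5.50 and 5.56, Rplp1 read 6.76 and 6.84, Rplp2 read 7.03 and 7.16, and Rpl12, which lies at the stalk base, read 5.42 and 5.55. All 4 were above 0, with a median of 0.11, and after loess the median was -0.00212.

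Several large subunit genes departed from this pattern. Rpl38, known for its part in the translation of Hox messenger RNAs in the embryo, read 7.32 in Il18+/+ and 7.23 in Il18-/-, and its 2 probes gave -0.13 and -0.06. Rpl36 read 5.80 and 5.77, and its 3 probes gave -0.12, -0.02 and 0.02. Rpl38 stayed below 0 under each of the 9 other settings without the spike-in scaling, while Rpl36 reached 0.02 when the arrays were scaled to their medians. Rpl37 read 7.76 and 7.78, Rpl41 read 7.41 and 7.46 and Rpl37a read 7.37 and 7.43. These 3 encode very small and basic proteins, were among the 5 members with the brightest signal, and had differences of 0.02, 0.05 and 0.06. After loess these became -0.095, -0.066 and -0.048, and Rpl37 was also below 0 with normexp (-0.0051) and with the deposited values (-0.042), as was Rpl41 with the deposited values (-0.016). The others of the brightest 5 were Rps14, which read 8.09 and 8.23, and Rpl35, which read 7.21 and 7.39.

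**Figure D3:**
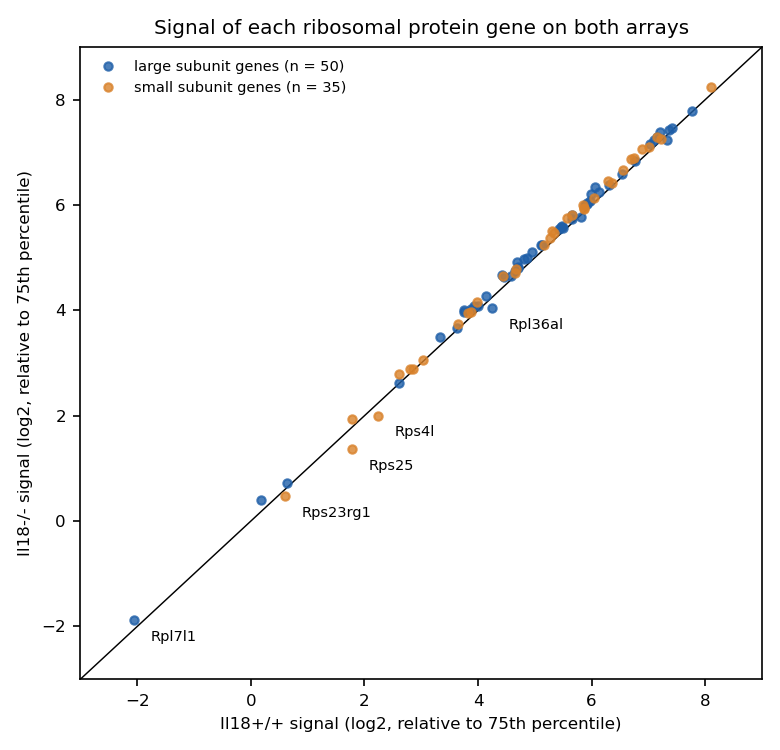
Level of each measured member on the Il18+/+ array (horizontal, log2) and on the Il18-/- array (vertical, log2), 50 large subunit genes in blue and 35 small subunit genes in orange, with the line of equal levels. Most points lie just above the line with this scaling (none would with spike-in scaling), and Rps25, Rps4l, Rpl36al, Rps23rg1, Rpl38 and Rpl36 lie below it.

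The small subunit held the lowest member of all, while most of its genes read slightly higher with this scaling and lower with spike-in scaling. Rps4x, an X-linked gene of the small subunit body, read 4.43 in Il18+/+ and 4.65 in Il18-/-, a difference of 0.22 or 1.16-fold. This was the highest of the subunit with the 75th percentile, but Rps15a was above it after loess (0.15 against 0.14), Rps14 after quantile normalization (0.18 against 0.14), and Rps12 and Rps27a by their brightest probes (0.28 and 0.27). Rps2, at the channel where messenger RNA enters, read 5.31 and 5.51 with a difference of 0.21 over 2 probes. Rps6, the classical target of S6 kinase phosphorylation, read 3.98 and 4.16, and its 3 probes gave 0.16, 0.18 and 0.21. Rps14, which helps to form the platform, differed by 0.14, and by 0.02 after loess. Rps27a, made as a fusion with ubiquitin, read 2.80 and 2.89, with 0.15 and 0.27 from its bright probes and -0.15 from a dim probe that read -4.67 and -4.82. Rpsa, also known as the laminin receptor, read 3.65 and 3.74.

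Rps25, a protein near the exit side of the small subunit that is needed by some viral internal ribosome entry sites, was the lowest member and its 2 probes disagreed. Its mean level was 1.78 in Il18+/+ and 1.36 in Il18-/-, a difference of -0.42 or 1.33-fold lower. The bright probe read 5.58 and 5.76, a difference of 0.18 that sits inside the range of the other members. The dim probe read -2.02 and -3.04, a difference of -1.01 or 2.02-fold lower, and its processed intensity was 171 in Il18+/+ and 86.5 in Il18-/-. It was well above background on both arrays. Of the 18 nearest spots on the glass 0 differed by 2-fold or more in either direction, and their median difference was -0.10. Of the 174 measured member probes, 1 reached 1.5-fold, and it was this probe. Of all 35632 measured probes 718 were 1.5-fold or more higher and 1243 were 1.5-fold or more lower. Under a level of 0, where this probe lies, these were 651 and 1147 of 22268 probes. Read by its brightest probe alone, Rps25 was 0.18 higher.

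Rps25 is also the member nearest to Il18. Both genes lie on chromosome 9, with 50 measured genes between them in the RefSeq order. Slc37a4, which encodes the glucose-6-phosphate transporter and lies 2 measured genes further from Il18, read 2.17 and 2.90, a difference of 0.73 or 1.66-fold. Trappc4, between Slc37a4 and Rps25, read 3.92 and 3.79, and on the other side Ccdc84 read -1.28 and -1.09. These neighbours were chosen after the value of Rps25 was seen. The other 6 measured members on chromosome 9 had 116 or more measured genes between them and Il18, and their differences ran from 0.02 for Rps27l to 0.28 for Rpl4. The probe for Il18 itself read 1.37 in Il18+/+ and -0.12 in Il18-/-, and where it lies relative to the removed part is not known here. The part that the position near Il18 has in the value of Rps25 was not tested.

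Dim probes gave the widest spread among the members. Of the 174 measured probes, 142 had a mean level of 4 or more, and their differences had a standard deviation of 0.08 with 134 above 0. Only 13 lay below a level of 0, where the standard deviation was 0.37 and 8 were above 0. Among these was a probe of Rpl6 at -0.37, whose 3 other probes gave 0.14 to 0.18. Within 52 members with several measured probes, 41 had all probes above 0, 1 had all below 0 and 10 had probes on both sides. The median standard deviation between probes of 1 gene was 0.05 for these members and 0.12 over the 4123 genes of the array with several measured probes. These values were not matched for brightness, since only 2680 of all 35632 measured probes had a level of 4 or more. Rpl21, among the 5 members with the lowest signal, read 0.63 and 0.72, with 3 probes between -0.04 and 0.25.

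Paralogs of core proteins lay on both sides of 0. Of 9 on the array, 6 were measured, 3 above 0 and 3 below 0, with a median of -0.05. Rpl36al, an intronless relative of the X-linked Rpl36a, read 4.25 in Il18+/+ and 4.05 in Il18-/-, a difference of -0.20, where Rpl36a read 4.15 and 4.28. Of the 18 spots nearest to the Rpl36al probe 4 were 2-fold or more lower, their median was -0.11, and their part in the value was not tested. Rps4l differed by -0.24, from 2.24 in Il18+/+, where Rps4x was 0.22 higher. Rps23rg1, a retrotransposed copy of Rps23, read 0.59 and 0.47, a difference of -0.13, where Rps23 read 6.28 and 6.46. These 3 stayed below 0 under each of the 9 other settings without the spike-in scaling. Each was read by 1 probe, so no second probe bears on them. The settings that choose among probes left their values unchanged, and array medians and deposited values shift all genes alike. Only quantile normalization, loess and normexp recomputed them. After loess Rpl36al was at -0.28, Rps4l at -0.29 and Rps23rg1 at -0.15.

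The other measured paralogs were closer to their partners. Rpl22l1, which can replace Rpl22 and acts against it in some tissues, read 5.13 and 5.25, a difference of 0.12, where Rpl22 read 3.88 and 4.03. Rpl7l1 read -2.06 and -1.88 by 1 dim probe, a difference of 0.18, where Rpl7 read 5.47 and 5.60. After loess Rpl7l1 differed by 0.24 and Rpl7 by 0.04. Rps27l, a p53-responsive relative of Rps27, read 2.86 and 2.88, where Rps27 read 6.36 and 6.42. The 3 paralogs known from testis or striated muscle, Rpl10l, Rpl39l and Rpl3l, were not well above background on either array and get no fold. Their core partners Rpl10, Rpl39 and Rpl3 differed by 0.15, 0.0070 and 0.10. Rpl32l, a copy of Rpl32 that counts as core here, read 5.46 and 5.59.

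Some ribosome components are left out by the rule on names. Fau, made as a fusion of a ubiquitin-like protein with S30, read 7.42 and 7.59, a difference of 0.17. Rack1, the scaffold on the head of the small subunit, read 6.49 and 6.64. The pseudogenes Rpl34-ps1 and Rps15a-ps6, left out by the rule, had differences of 0.19 and -0.06.

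Genes mutated in Diamond-Blackfan anaemia, an inherited failure of red cell production, are a subset of the members. All 23 listed were measured and all 23 were above 0 with this scaling, where 75 of the 78 core members were. Their differences ran from 0.04 for Rps29 to 0.24 for Rpl5, with a median of 0.13. With spike-in scaling the median was -0.18 and no gene of the list was above 0. Rps19, the gene most often mutated in the disease, read 4.65 and 4.71. After loess the median of the list was 0.03, and Rps19, Rps20, Rps26, Rps27 and Rps29 were below 0.

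Other genes of ribosome production and translation had medians from -0.04 to 0.12 (all below 0 with spike-in scaling), and no gene of the following lists reached 1.5-fold. The lists were chosen with earlier results of these data known. Ribosomal proteins of the mitochondrion, which are encoded in the nucleus, had a median of 0.11 with 69 of 77 measured members above 0. Mrps23 differed by 0.31, Mrpl48 by 0.30 and Mrps2 by -0.26. Ribosome assembly factors had a median of 0.11 with 33 of 38 above 0. After loess the medians were 0.06 for the mitochondrial list and 0.08 for the assembly factors, against 0.03 for the cytosolic members. Among them Utp18, of the small subunit processome, differed by 0.38 at a low level of -4.61 and -4.23, Dkc1, the pseudouridine synthase dyskerin, by 0.34 and Emg1 by 0.28.

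Host genes of small nucleolar RNAs, whose introns release the guides for ribosomal RNA modification, had 7 of 14 listed genes on the array. Of these 6 were above 0 and the median was 0.12, or 0.13 after loess. Snhg12 read 2.15 in Il18+/+ and 2.60 in Il18-/-, a difference of 0.45 or 1.36-fold, Snhg1 was 0.37 higher and Snhg3 was 0.37 higher. Each rests on 1 probe.

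RNA polymerase I and its factors, which transcribe ribosomal RNA, had a median of 0.04 with 13 of 19 above 0. Polr2k differed by 0.22, Taf1b by 0.22 and Taf1a by -0.18. Translation initiation factors had a median of 0.05 with 23 of 36 above 0, and Eif3e, Eif6 and Eif3m each differed by 0.22. Elongation and termination factors had a median of 0.07 with 9 of 12 above 0. Etf1, the release factor that reads stop codons, differed by -0.28, while Abce1, which recycles ribosomes, differed by 0.18 and Eef1d by 0.10. Genes of mTOR control were spread more evenly, with 9 of 20 above 0 and a median of -0.04. The median of the mTOR list was 0.01 with the array medians and 0.02 after loess. After loess the medians were 0.03 for RNA polymerase I, 0.01 for initiation factors and -0.02 for elongation and termination factors. Mycn, a transcription factor that drives ribosome production, differed by 0.53, the kinase gene Rps6kb2 by -0.37 and Akt1s1 by 0.28.

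**Figure D4:**
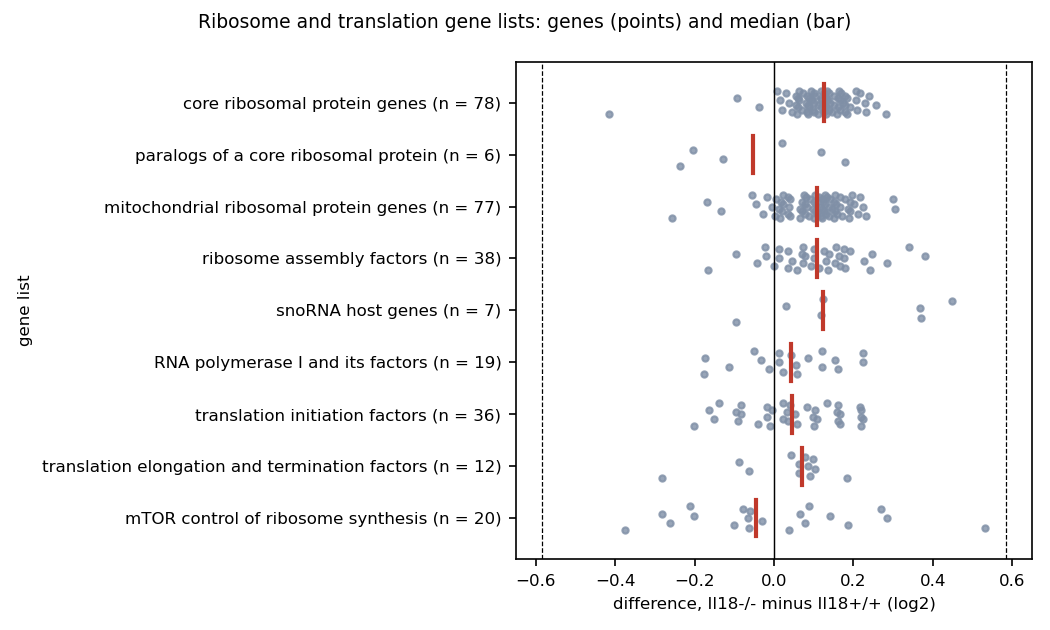
Difference (log2) of each measured gene in 9 lists of ribosome production and translation (points), with the median of the list (red bar) and dashed lines at 1.5-fold. Core cytosolic, mitochondrial and assembly genes lie mostly to the right of 0 with this scaling (their medians are left of 0 with spike-in scaling), and the mTOR list lies on both sides.

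Some markers of other tissue and cell types differed between these arrays by more than any member, and their part in the values of the members was not tested. All 14 choroid plexus markers were lower in Il18-/-, with levels from -1.71 to 8.01 in Il18+/+ and from -3.36 to 7.05 in Il18-/-. Their summed linear level was 386 and 194, most of it from Ttr (8.01 and 7.05) and Enpp2 (6.59 and 5.57). Of 13 measured liver markers 10 were higher, while Fga, Trf and Ttr were lower, and Ttr is on both lists. The 5 measured medial habenula markers were all higher, with a median difference of 1.09. The 8 myelin markers were all lower, with a median of -0.22. Red cell markers had a median of 0.16 with 4 of 4 above 0. Neuronal markers had 3 of 6 above 0 and a median of 0.04.

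The choice of scaling sets where 0 lies for these genes. Relative to the median of all genes, the median of the members was 0.11 higher with the 75th percentile, the array median, the deposited values or the spike-in controls, 0.05 higher after quantile normalization and 0.03 higher after loess. In absolute terms it ran from -0.19 with the spike-in controls, which shift the median of all genes by 0.31 to lower values, to 0.18 with the array medians. Under the spike-in scaling 0 of 85 members were above 0. Of the 85 members 58 stayed above 0 and 4 stayed below 0 in the other settings without the spike-in scaling, which were 9 for each member except Rpl7l1 with 8. Those below 0 were Rpl36al, Rpl38, Rps23rg1 and Rps4l. For the 33 members with 1 measured probe, settings that choose among probes left the value unchanged where they kept it. Array medians and deposited values shift all genes by the same amount.

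**Figure D5:**
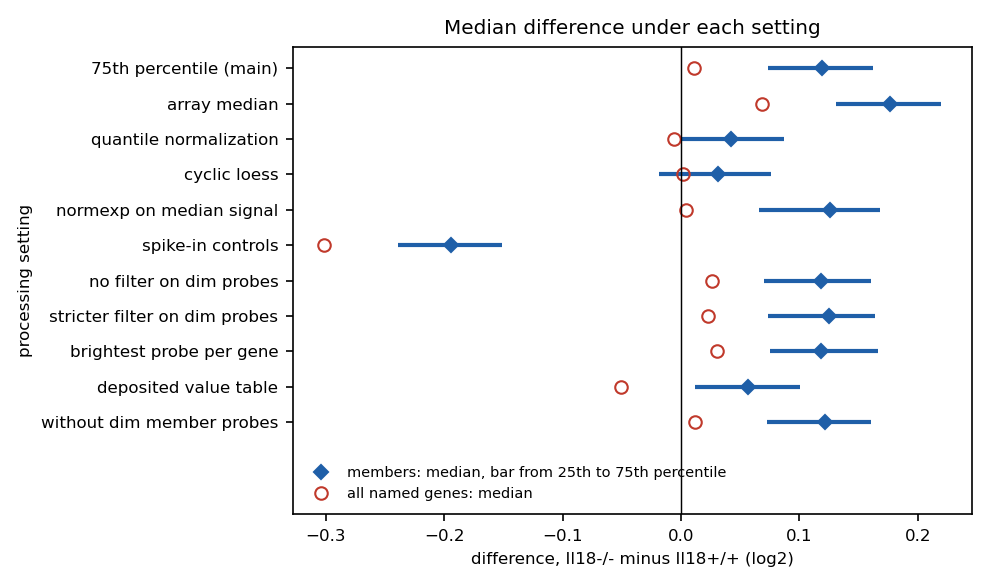
Median difference (log2) of the measured members (diamonds, with a bar from the 25th to the 75th percentile of the genes) and of all named genes (circles) under 11 processing settings. The diamond lies to the right of the circle in every setting drawn, with the smallest gap after cyclic loess.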

How the data were processed

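Each array held 62976 spots, of which 59305 were not controls. The deposited intensity values came from Agilent Feature Extraction 10.10.1.1, per the submitters' processing notes, and were background-subtracted and spatially detrended but not scaled between arrays, per the file headers. The value table that the authors deposited equals this intensity times 1 constant per array, 2.05 and 1.92, and served as an alternative. Flags for background, outliers and saturation were also used, per the file headers.

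Here log2 intensity was computed from the deposited values and the 75th percentile of each array (694.8 and 709.9) was subtracted. Spots of a probe, then measured probes of a gene, were averaged. Well above background were 67.8% and 66.2% of spots. Outlier spots (124 and 177) were left out, and 0 spots were saturated. Probes were named by accession through RefSeq of GRCm38.p6, as 27234 probes were. No test was made, and 1 array per genotype limits the precision.

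The members, gene lists and settings were chosen with earlier results of these data known. Named were members at 1.5-fold, the 6 highest and 6 lowest, the 5 brightest and 5 dimmest, members with probes more than 0.2 to both sides of 0 (none met this), paralogs with their partners, and up to 3 genes per list. A few others, such as Rps2, Rps6 and Rps27a, were named after their values were seen. Some genes that this rule names are not reported here. The calculations were tested on simulated data. Normalization used limma 3.58.1 in R 4.3.3. Other steps used pandas 2.3.3 and numpy 2.4.6 under Python 3.11.15, with figures from matplotlib 3.10.9.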

Additional observations from a re-analysis of the deposited data

How the results depend on the processing

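No paired analysis was possible because each genotype had 1 sample and the labels give no replicate numbers. For the same reason no replicate was left out, and precision is limited by 1 array per genotype. Medians and counts were compared in 210 cases, and 176 moved by no more than the spread of repeated spots (0.07) or, for counts, by no more than 1.5 times. The other 34 follow. Part of the 176 was fixed beforehand, since array medians and deposited values shift all genes by the same amount, smaller than this spread. Counts of members at 1.5-fold and 2-fold were 0 in every setting other than the spike-in scaling. The median of the members went from 0.12 to 0.06 with the deposited values and still counted as within the spread. Single genes were less steady, since the differences of 62 of 85 members moved by more than 0.07 after cyclic loess, 49 of 85 after quantile normalization and 85 of 85 with spike-in scaling, against at most 8 in any of the other settings. Leaving out dim member probes was chosen after seeing the data, and the normexp setting used the median signal with an offset of 50.

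After quantile normalization the medians were 0.042 for the members, 0.040 for the large subunit, 0.046 for core members, 0.024 for the stalk, 0.10 for the 5S particle pair Rpl5 and Rpl11, 0.047 for the Diamond-Blackfan list and -0.013 for elongation and termination factors. After cyclic loess they were 0.031 for the members, 0.032 for the large subunit, 0.027 for the small subunit, 0.034 for core members, 0.048 for ribosome parts outside the rule, -0.00212 for the stalk, 0.093 for the 5S particle pair, 0.033 for the Diamond-Blackfan list and -0.020 for elongation and termination factors.

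With the arrays scaled to 260 spots of spike-in controls, 1 member, Rps25, was 1.5-fold lower and 0 members were above 0. The medians were then -0.19 for the members, -0.19 for the large subunit, -0.20 for the small subunit, -0.19 for core members, -0.20 for mitochondrial ribosomal proteins, -0.16 for ribosome parts outside the rule, -0.37 for paralogs, -0.21 for the stalk, -0.13 for the 5S particle pair, -0.18 for the Diamond-Blackfan list, -0.27 for initiation factors, -0.24 for elongation and termination factors, -0.27 for RNA polymerase I, -0.21 for assembly factors, -0.19 for small nucleolar RNA hosts and -0.36 for mTOR control. The spike-in scaling lowers every gene by the same 0.31. For the other settings the cause was not tested.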
